A study of Mus musculus with 10 samples.

Results

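Capsaicin-sensitive vagal neurons were obtained in 2 ways, and the RNA of the neurons chosen by their response to capsaicin is compared here with that of the neurons chosen by the red reporter of Trpv1-tdTomato mice. The comparison takes 8 of the 10 pools of the series by their labels, 4 from the capsaicin selection and 4 tdTomato-positive pools from the Trpv1-tdTomato selection, with 2 nodose and 2 jugular pools in each. The 2 tdTomato-negative nodose pools were left out. In the capsaicin selection, dissociated neurons of wild-type C57BL/6 mice were given α,β-methylene-ATP, which opens P2X channels, and capsaicin, which opens TRPV1, while their calcium was recorded. Nodose cells were taken if they answered to both compounds and jugular cells if they answered to capsaicin alone. In the tdTomato selection, each pool held red cells from Trpv1-tdTomato mice, more of them than a capsaicin pool held, in which Cre recombinase made from the Trpv1 gene switches on tdTomato from the Rosa26 locus. These cells came from a few mice and were not given an agonist. Cre acts for good, so the reporter marks cells that express Trpv1 and also cells that expressed it earlier in development. Which mouse each pool came from is not stated, so the p-values measure the spread between pools, which may not be separate animals.

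Nodose neurons arise from the epibranchial placodes and jugular neurons from the neural crest, and both ganglia send TRPV1-expressing C-fibers to the airways and other viscera. TRPV1 is a cation channel opened by capsaicin, heat and acid, and its opening lets calcium into the neuron. Ribosomal proteins and the nuclear-encoded subunits of oxidative phosphorylation are made from short, abundant messenger RNAs that every neuron carries.

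The 2 selections were processed at separate sequencing cores with the same kit for amplifying cDNA from few cells. Core, mouse strain, number of cells, depth and exposure to the agonists all go together with the selection and cannot be told apart from it. The total count on genes was 17666710 to 30810863 in the capsaicin pools and 153686267 to 167704327 in the tdTomato pools, so that 3 counts, taken as the floor, equal 0.124 to 0.143 and 0.0156 to 0.0217 CPM, the count scaled to a library of 1000000. After every pool was thinned to the lowest total, 7221 to 10010 genes had a count in the capsaicin pools and 10571 to 10924 in the tdTomato pools (exact permutation test of 4 against 4 pools, two-sided p = 0.0286, the smallest this design can give, and 0.0381 after adjustment over 4 measures). Of the genes with at least 10 CPM in 1 pool of a pair, 45.2% were under 1 CPM in the other in the nodose capsaicin pair, 28.4% in the jugular capsaicin pair, 23.2% in the nodose tdTomato pair and 18.8% in the jugular tdTomato pair. The second nodose capsaicin pool stood apart, with 22.6% of its counts in its top 10 genes against 10.1% to 13.1% in the other capsaicin pools. The share in the top 10 genes was 1 of the 4 measures compared between the selections (exact permutation test, two-sided p = 0.486). In the principal components of log2(CPM + 1) over 15588 genes, the first component (28.98% of the variance) separated the selections, from 22.5 to 207.5 for the capsaicin pools and from -114.7 to -89.4 for the tdTomato pools. The second (18.03%) separated nodose from jugular pools.

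With ganglion as covariate, edgeR's quasi-likelihood test called 700 of 11959 genes (5.85%) different between the selections. A call needed an adjusted p no higher than 0.1, a 2-fold difference or more, and 10 CPM or more in both pools of some group. Of these, 212 (1.77%) were higher in the capsaicin pools and 488 (4.08%) were higher in the tdTomato pools. Log2 fold changes are capsaicin over tdTomato throughout. The median log2 fold change of all genes tested was -1.04 after TMM scaling and -0.51 with DESeq2's size factors, under which 288 genes were called higher in the capsaicin pools and 271 higher in the tdTomato pools. The share of calls that were higher in the capsaicin pools was therefore 30.29% or 51.52%, depending on the scaling, and single changes are best read against the median. In CPM, the 4 pools of one selection did not overlap the 4 of the other for 2350 genes (19.7%), 445 of them higher in the capsaicin pools (3.72%) and 1905 higher in the tdTomato pools (15.9%). Leaving out the tdTomato pools one at a time left 255 and 285 (first and second nodose) and 289 and 320 (first and second jugular) calls higher in the tdTomato pools, and leaving out the first jugular capsaicin pool left 286. No count was found in any capsaicin pool for 819 of the genes tested and in any tdTomato pool for 65. The tdTomato pools had the higher totals, and a gene could pass the filter on the pools of a single selection. These numbers are therefore not a like comparison. In bulk pools, fewer cells of a type and less RNA per cell cannot be told apart.

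**Figure D1:**
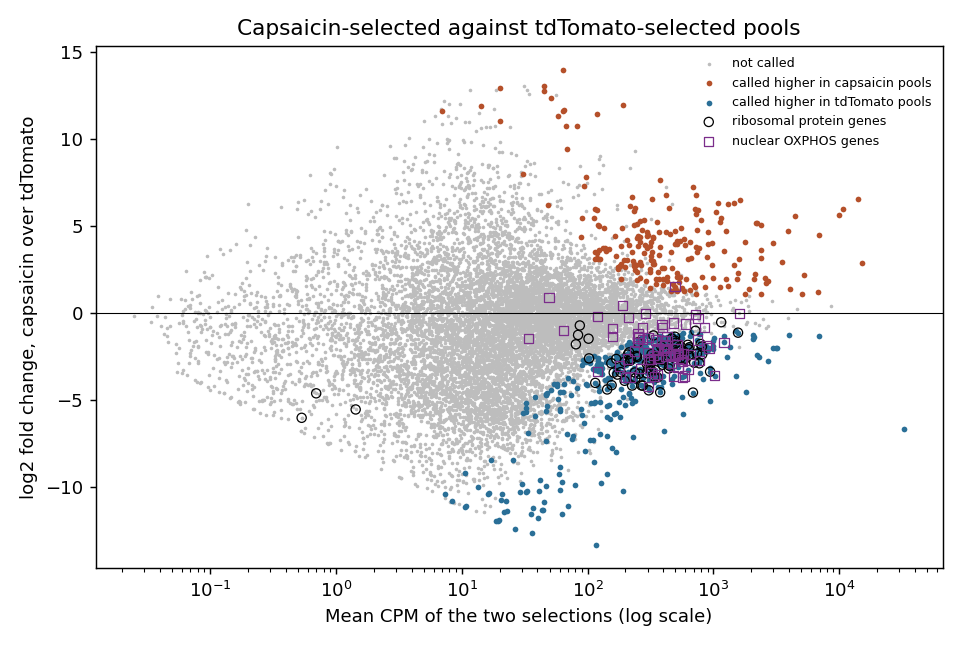
Log2 fold change of each tested gene against its mean CPM over the selections (log axis), for genes with counts in both selections. Red points are the genes called higher in the capsaicin pools, blue points those called higher in the tdTomato pools, grey points the rest, and open circles and squares mark ribosomal protein and nuclear oxidative phosphorylation (OXPHOS) genes, almost all of which lie below 0.

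Among the genes called higher in the capsaicin pools with the smallest p was Gnb1. This gene, for a beta subunit of heterotrimeric G proteins (chromosome 4, 155491361 to 155559269, GRCm38), had 342 and 356 CPM in the nodose and 164 and 286 CPM in the jugular tdTomato pools. In the capsaicin pools it had 13240 and 57160 CPM (nodose) and 24230 and 16850 CPM (jugular). Every capsaicin pool was thus above every tdTomato pool, by a log2 fold change of 6.50 ± 0.45 (SE, 4 against 4 pools, edgeR adjusted p = 0.000103). Dpysl2, a regulator of microtubules in growing axons (chromosome 14, 66802864 to 66868688), rose from 234 to 427 CPM in the tdTomato pools to 10470, 43830, 17120 and 13060 CPM in the capsaicin pools, a log2 fold change of 5.97 ± 0.42 (edgeR adjusted p = 0.000103). Dusp3, a phosphatase of MAP kinases (chromosome 11, 101971143 to 101987013), had 28.3 to 45.6 CPM in the tdTomato pools and 1522, 4750, 2686 and 2567 CPM in the capsaicin pools. Its log2 fold change was 6.27 ± 0.41 (edgeR adjusted p = 0.000103). The pools of the selections did not overlap for any of these genes.

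Gsk3b, a kinase of glycogen metabolism and Wnt signalling, had 140 to 200 CPM in the tdTomato pools and 4068 to 19040 CPM in the capsaicin pools. Inpp4a, a phosphoinositide phosphatase, had 15.2 to 40.9 against 956 to 3924 CPM. Dnase1l3, a secreted DNase, was near the floor in the tdTomato pools (0.0362 to 0.126 CPM) and reached 102, 393, 514 and 533 CPM in the capsaicin pools. The genes 2900097C17Rik (336 to 565 against 2376 to 6137 CPM) and C330006A16Rik (30.8 to 64.9 against 1344 to 3806 CPM) were also called. Among the most abundant genes called higher in the capsaicin pools were the microtubule protein gene Map1b (2684 to 3816 against 13840 to 57130 CPM), Prune2 (269 to 564 against 5869 to 40980 CPM) and Actb, which encodes beta-actin (379 to 690 against 4802 to 31280 CPM). In Gnb1, Dpysl2, Map1b, Prune2 and Actb the second nodose capsaicin pool was the highest of the 8, and the lowest of the capsaicin pools was still above every tdTomato pool.

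**Figure D2:**
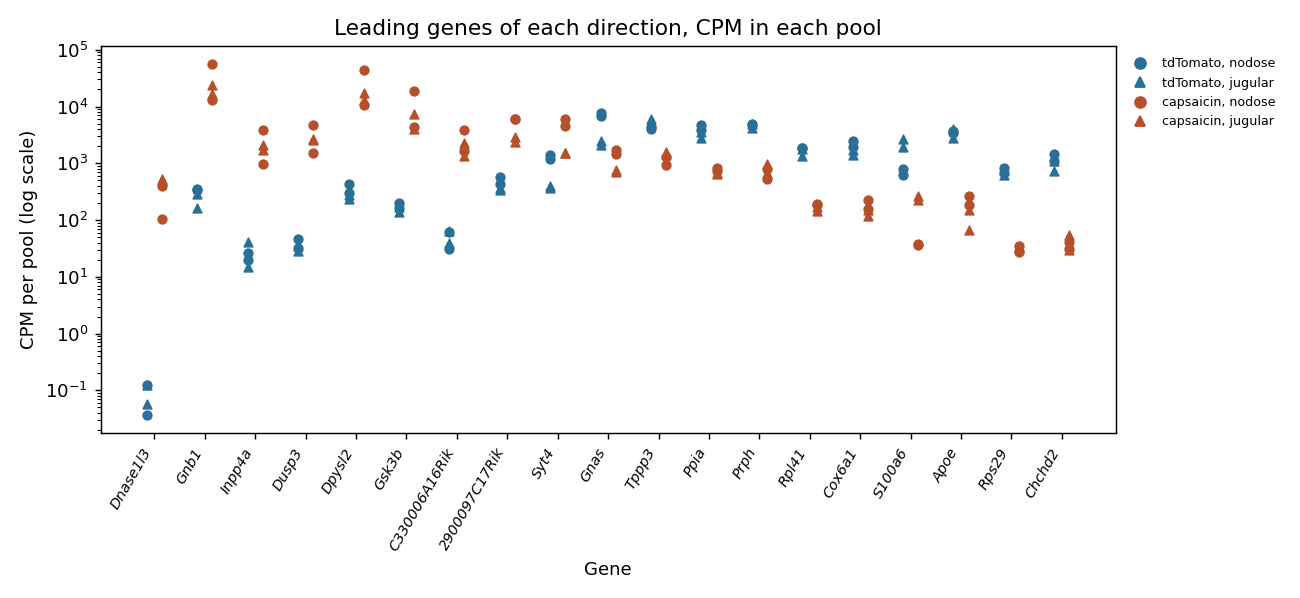
CPM (log axis) of genes of each direction with the smallest p among called genes whose pools do not overlap, one point per pool, circles for nodose and triangles for jugular, red for capsaicin and blue for tdTomato. For Gnb1 the capsaicin pools lie between 13240 and 57160 CPM and the tdTomato pools between 164 and 356 CPM.

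Among the genes called higher in the tdTomato pools with the smallest p was Ppia. Ppia, a peptidyl-prolyl isomerase that is often used as a reference gene, had 4637 and 3875 CPM (nodose) and 3572 and 2762 CPM (jugular) in the tdTomato pools and 638 to 830 CPM in the capsaicin pools, a log2 fold change of -2.44 ± 0.18 (edgeR adjusted p = 0.000103). Prph, the neurofilament-like protein peripherin of small sensory neurons, had 4101 to 5008 CPM in the tdTomato pools and 536 to 985 CPM in the capsaicin pools. Uchl1, a ubiquitin hydrolase of neurons, fell from 2819 to 4554 CPM to 492 to 944 CPM, and Gapdh, an enzyme of glycolysis, from 1078 to 1713 CPM to 109 to 164 CPM. The calcium-binding protein gene S100a6 had 630 to 2705 against 36.5 to 271 CPM, the mitochondrial protein gene Chchd2 736 to 1436 against 30.1 to 54.1 CPM, Tppp3 3939 to 6124 against 924 to 1597 CPM, and Gnas, a G protein alpha subunit, 2104 to 7685 against 692 to 1732 CPM. Among the most abundant called genes were Sncg, gamma-synuclein of sensory neurons (8019 to 12320 against 3748 to 4749 CPM), Fth1, the ferritin heavy chain (4907 to 5835 against 1571 to 4487 CPM), and Tmsb4x, which encodes an actin-binding peptide (3798 to 6102 against 889 to 1610 CPM). The pools of the selections did not overlap for any of these.

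Ribosomal protein genes moved together. Of 80 tested, 66 were called higher in the tdTomato pools (82.5%, against 4.08% of all genes) and none was called higher in the capsaicin pools, and all 80 had a log2 fold change below 0. Their median was -2.66, against -1.04 for all genes. In 74 of them the pools did not overlap and were higher in the tdTomato selection, as in 15.9% of all genes tested. Rpl41, a small protein of the large subunit (chromosome 10, 128548114 to 128549305), had 1872, 1851, 1764 and 1352 CPM in the tdTomato pools and 196, 184, 144 and 171 CPM in the capsaicin pools, a log2 fold change of -3.39 ± 0.25 (edgeR adjusted p = 0.000103). Rps2, of the small subunit, had 1250 to 1373 against 24.1 to 107 CPM, Rps29 633 to 821 against 26.9 to 35.6 CPM, and Rpl38 447 to 696 against 17.4 to 32.7 CPM. The list as a whole made up 4.86% to 5.65% of the counts of the tdTomato pools and 0.708% to 1.41% of those of the capsaicin pools. Within the jugular pools alone 52 of 80 were called higher in the tdTomato pools, against 246 of all 10524 genes tested there. Within the nodose pools alone 1 of 79 was called, against 16 of all 9453 genes tested, and all 79 had a log2 fold change below 0. The medians of the list were -2.48 (jugular) and -2.41 (nodose). Ribosomal protein genes have many processed copies in the mouse genome, and how reads shared with them were counted is not stated.

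Nuclear genes for oxidative phosphorylation, the mitochondrial chain that makes ATP, gave a like picture. Of 75 tested, 50 were called higher in the tdTomato pools (66.7%, against 4.08% of all genes), 1 was called higher in the capsaicin pools, and the median log2 fold change was -2.06. Cox6a1, a subunit of cytochrome c oxidase (chromosome 5, 115345642 to 115348981), had 2492, 1968, 1682 and 1399 CPM in the tdTomato pools and 226, 154, 148 and 120 CPM in the capsaicin pools, a log2 fold change of -3.63 ± 0.26 (edgeR adjusted p = 0.000103). Ndufb2, of complex I, had 417 to 664 against 23.6 to 58.4 CPM and Atp5e, of ATP synthase, 366 to 806 against 36 to 90.6 CPM. The exception was Sdha, the flavoprotein of succinate dehydrogenase, with 137 to 462 CPM in the tdTomato pools and 358 to 1358 CPM in the capsaicin pools, which overlapped. The list took 4.12% to 5.46% of the counts of the tdTomato pools and 1.23% to 1.995% of those of the capsaicin pools. Within single ganglia 33 of 75 (jugular) and 2 of 75 (nodose) were called higher in the tdTomato pools. Of all genes tested there, 246 of 10524 (jugular) and 16 of 9453 (nodose) were. The medians of the list were -2.09 (jugular) and -1.74 (nodose).

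Promoter sequence of the called ribosomal protein and OXPHOS genes was read from RefSeq (GRCm38.p6) in windows from 250 bases before to 50 bases after each gene's start. The stretches shown are those around CCGGAAG, the core that ETS family factors such as GABP bind, nearest the start in the 3 genes of each list with the smallest p that hold it, with the motif in capitals on whichever strand it lies (CTTCCGG is its complement):
Rpl41: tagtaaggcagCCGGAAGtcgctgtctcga
Rps2: atttatacgtcCTTCCGGctggtgtagggc
Rpl38: gggttaaccgtCCGGAAGcggaagcctcgt
Cox6a1: ccccatttccgCTTCCGGcgcgccggtgta
Cox8a: tttccgaaataCTTCCGGctcgggcgtccg
Uqcrh: agtatgccgcaCTTCCGGccaggtcgccgg

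These 30-base stretches lie at chr10:128549206-128549235 (minus strand), chr17:24719925-24719954 (plus), chr11:114668549-114668578 (plus), chr5:115348956-115348985 (minus), chr19:7217603-7217632 (minus) and chr4:116075062-116075091 (minus), and are written along the gene. CCGGAAG was settled on after windows had been read by eye and other motifs had been counted, 8 motifs in all, so its share is a description and has no test. On either strand it was in 39% of 59 tested ribosomal protein genes with a window, in 25.8% of 62 tested OXPHOS genes, in 19.6% of 9077 tested genes and in 9.93% of 27025 genes with a window. Among list members called higher in the tdTomato pools it was in 41.7% of 48 ribosomal protein and 27.3% of 44 OXPHOS genes. These shares are near those of the tested members. It was in 23% of 365 genes called higher in the tdTomato pools and in 12.7% of 157 called higher in the capsaicin pools.

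The other 7 motifs were counted in the same windows. CTTTCC was in 50.8% of the ribosomal protein genes, 27.4% of the OXPHOS genes, 30.6% of tested genes and 29.3% of all genes, and CCTTTC, which overlaps it, in 39%, 25.8%, 26.5% and 26.5%. CTTTTC was in 27.1%, 21%, 21.9% and 24.3%. GCGCATGC was in 5.08%, 17.7%, 6.07% and 3.05%, and its longer palindromic form, which ends in a further GC, in 3.39%, 8.06%, 2.3% and 1.07%. AAGATGGCG was in 6.78%, 11.3%, 3.67% and 1.64%, and TGACGTCA in 6.78%, 8.06%, 3.73% and 2.03%. Of the 8 motifs, CCGGAAG and CTTTCC had the widest gaps between ribosomal protein genes and tested genes. Between OXPHOS genes and tested genes GCGCATGC had the widest gap (17.7% against 6.07%). CCGGAAG had 25.8% against 19.6% there.

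Transcript length and GC content moved with the difference between the selections. Both were taken from the longest protein-coding transcript of each gene in GENCODE vM21, or the longest transcript where there was no coding one, for 11847 of the 11959 genes tested. Averaged over counts, the transcripts had a GC content of 47.8% to 48.6% in the capsaicin pools and 51% to 51.4% in the tdTomato pools, and a length of 3614 to 4170 against 2559 to 2722 bases. No pool of one selection overlapped the other in either measure (exact permutation test of 4 against 4 pools, two-sided p = 0.0286 each, the smallest possible, and 0.0381 after adjustment over 4 measures). From the fifth of genes with the lowest GC content to the fifth with the highest, the median log2 fold change was 0.04, -0.55, -0.73, -1.35 and -2.82. Calls higher in the capsaicin pools numbered 82, 63, 43, 16 and 7 over these 5 groups, and calls higher in the tdTomato pools 26, 62, 82, 116 and 197. The fifth with the shortest transcripts had a median of -1.84 and held 307 calls higher in the tdTomato pools and 10 higher in the capsaicin pools.

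With the length and GC trend of each pool removed by an offset, 160 genes were called higher in the capsaicin pools and 275 higher in the tdTomato pools, among them 124 of the 212 and 230 of the 488 called without it. Of the ribosomal protein genes 42 of 80 were then called higher in the tdTomato pools (median -2.17), and of the OXPHOS genes 34 of 75 (median -1.55). Gnb1 (5.85), Dpysl2 (5.47), Dusp3 (5.88), Ppia (-2.53) and Rpl41 (-1.69) kept their calls, while Cox6a1 (-0.97), Uchl1 (-0.77), Tppp3 (-0.27) and Gnas (-0.65) lost theirs, and Prph (0.08) and Sncg (0.54) changed sign without a call. The offset was added after the data had been seen.

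**Figure D3:**
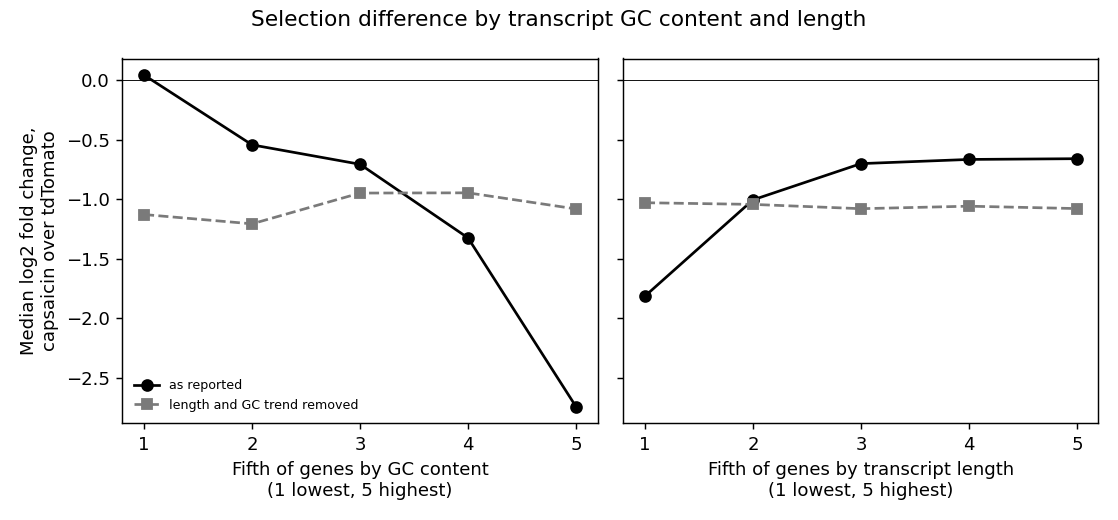
Median log2 fold change of the tested genes in 5 groups of equal size by transcript GC content (left) and length (right), as reported with genes absent from a whole selection at their bound (black) and with the length and GC trend removed (grey). The black line falls from 0.04 to -2.74 across the GC groups, and the grey lines stay near -1.

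Of 15 genes that mark capsaicin-sensitive vagal neurons, 1 was called higher in the tdTomato pools (6.67%, against 4.08% of all genes) and none higher in the capsaicin pools (against 1.77%), with a median log2 fold change of -0.48. These shares are near those of all genes. Trpv1, the capsaicin receptor itself (chromosome 11, 73234292 to 73261242), had 285 and 160 CPM (nodose) and 24.6 and 33.3 CPM (jugular) in the tdTomato pools. In the capsaicin pools it had 211 and 193 CPM (nodose) and 239 and 80.8 CPM (jugular), which overlap the tdTomato range, with a log2 fold change of 1.08 ± 0.79 (edgeR adjusted p = 0.534). Both jugular capsaicin pools were above both jugular tdTomato pools, a difference that was not called within the jugular pools (log2 fold change 2.45, edgeR adjusted p = 0.246). P2rx3, a subunit of ATP-gated channels, had 110 to 276 against 170 to 314 CPM. P2rx2, its partner in nodose neurons, had 331 to 502 CPM in the nodose pools of both selections and at most 0.253 CPM in the jugular pools.

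Other markers were compared with the ganglion labels. Tac1, the precursor of substance P, had 1186 and 864 CPM in the jugular tdTomato pools, 1160 and 284 CPM in the jugular capsaicin pools and at most 1.08 CPM in the nodose pools. Prdm12, a crest sensory regulator, had 190 and 190 CPM against 23.9 and 37.3 CPM in the jugular pools. It was not called between the selections (log2 fold change -2.75 ± 1.24, edgeR adjusted p = 0.239). Pou4f1, a sensory fate factor, was called higher in the capsaicin pools, with 0.341, 41.1, 41.9 and 96.6 CPM against 96.4, 506, 2093 and 1785 CPM, which overlapped slightly.

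**Figure D4:**
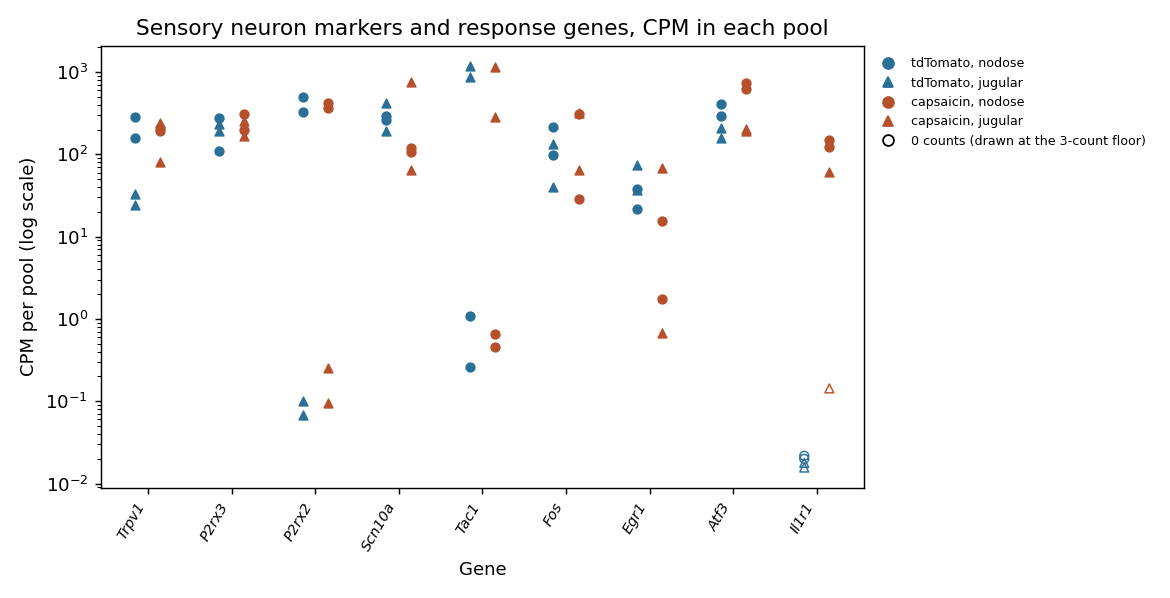
CPM (log axis) of sensory markers and response genes in each pool, circles for nodose and triangles for jugular, red for capsaicin and blue for tdTomato, with open symbols at the floor of 3 counts where a pool had 0. P2rx2 is high in nodose pools and Tac1 in jugular pools of both selections, and the pools overlap for Trpv1, P2rx3, Fos and Atf3.

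Genes that neurons switch on after activity or injury were examined because the capsaicin pools had been exposed to agonists. Of 30 immediate early genes, none was called higher in the capsaicin pools and 2 were called higher in the tdTomato pools (6.67%), near the 1.77% and 4.08% of all genes. Fos had 99, 214, 135 and 40.5 CPM in the tdTomato pools and 306, 28.3, 64.1 and 317 CPM in the capsaicin pools, a log2 fold change of 0.51 ± 0.88 (edgeR adjusted p = 0.841), and the pools overlapped. Egr1 had 21.8 to 73.8 against 0.674 to 68.3 CPM (edgeR adjusted p = 0.741). The called genes were the AP-1 subunits Junb, with 198 to 269 against 0 to 4.46 CPM, and Jund, with 168 to 445 against 0.0422 to 14.1 CPM. Their transcripts have GC contents of 62.58% and 67.15%, and with the length and GC trend removed their log2 fold changes were -4.15 and -2.88, without a call (edgeR adjusted p = 0.22 and 0.232). The parts of length and GC were not tested apart.

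Of 18 axon injury genes, 1 was called in each direction (5.56% each). Of all genes, 1.77% were called higher in the capsaicin pools and 4.08% higher in the tdTomato pools. Sox11, a regulator of axon growth, was called higher in the capsaicin pools. It had 1.84, 2.29, 40.4 and 0.37 CPM in the tdTomato pools and 700, 281, 1311 and 1020 CPM in the capsaicin pools, a log2 fold change of 6.76 ± 1.25 (edgeR adjusted p = 0.0112). Hspb1, a small heat shock protein, was called higher in the tdTomato pools (528 to 1185 against 0 to 32.7 CPM). Atf3, a marker of injured neurons, had 159 to 405 against 190 to 746 CPM (edgeR adjusted p = 0.614), and Sprr1a had no count in any pool. Of 25 heat shock and unfolded protein response genes, Hspe1 alone was called (4%), higher in the tdTomato pools (222 to 547 against 58.7 to 118 CPM). Of 22 glycolysis and hypoxia genes, 2 were called higher in the capsaicin pools (9.09%) and 1, Gapdh, higher in the tdTomato pools (4.55%). The former were Hk2, a hexokinase (at most 0.0238 CPM in the tdTomato pools and 279, 114, 13.3 and 0.0477 CPM in the capsaicin pools), and Bnip3, a mitophagy receptor (221 to 368 against 544 to 1051 CPM).

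Calcium and synaptic genes were called in both directions. Of 30 calcium signalling genes 3 were called higher in the capsaicin pools (10%, against 1.77% of all genes) and 1 higher in the tdTomato pools (3.33%, against 4.08%). Among those higher in the capsaicin pools were Ncs1, a neuronal calcium sensor (22.8 to 81.2 against 689 to 1483 CPM), and Calm2, which encodes calmodulin (1684 to 2714 against 4363 to 7433 CPM) and may share reads in part with its paralogs. Camkk1, a kinase activated by calmodulin, had 73.8, 8.02, 35.6 and 38.4 CPM in the tdTomato pools and 0 in every capsaicin pool. That is at least 294-fold lower against the floor of 3 counts per pool (edgeR adjusted p = 0.0593). This bound covers counting error only, and Camkk1 passed the CPM requirement through tdTomato pools alone. Of 34 synaptic release genes 4 were called higher in the capsaicin pools (11.8%) and 2 higher in the tdTomato pools (5.88%). Syt4 (372 to 1388 against 1504 to 5936 CPM), Slc17a6, the vesicular glutamate transporter VGLUT2 (35.7 to 261 against 276 to 1114 CPM), Snap25 and Napb were called higher in the capsaicin pools. Vamp2 (325 to 728 against 88.9 to 248 CPM) and Rab3a (630 to 1202 against 294 to 351 CPM), of the synaptic vesicle, were called higher in the tdTomato pools. With the length and GC trend removed together, Syt4, Snap25 and Slc17a6 lost their calls (log2 fold changes 0.32, 0.55 and 1.27).

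Of 22 neuropeptide and granule genes, 1 was called higher in the capsaicin pools (4.55%, against 1.77% of all genes) and 3 higher in the tdTomato pools (13.6%, against 4.08%). The former was Pam, the enzyme that amidates peptides (4.44 to 115 against 154 to 1116 CPM). The latter were Vgf (64 to 164 against 1.39 to 7.98 CPM), Pcsk1n (714 to 1370 against 0 to 45.2 CPM) and Nmb. Of 82 voltage-gated channel genes, 1 was called higher in the capsaicin pools (1.22%) and 3 higher in the tdTomato pools (3.66%), near the shares of all genes. Scn2b, a sodium channel beta subunit, was called higher in the capsaicin pools, with 88.1, 5.53, 94.2 and 6.66 CPM against 920, 5640, 1460 and 851 CPM. Cacna2d3 (9.87 to 85.8 CPM in the tdTomato pools, at least 299-fold lower) and Hcn2 (10.8 to 61 CPM, at least 237-fold lower) had no count in any capsaicin pool. Both passed the CPM requirement through tdTomato pools alone (edgeR adjusted p = 0.0597 and 0.0687). Their bounds cover counting error only. None of 20 TRP, P2X, acid-sensing and Piezo channel genes and none of 25 ligand-gated receptor channel genes was called, with medians of 0.46 and -0.91.

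Of 30 receptors for inflammatory mediators, 1 was called in each direction (3.33%), near the 1.77% (higher in capsaicin) and 4.08% (higher in tdTomato) of all genes. Il1r1, the receptor of interleukin-1 (chromosome 1, 40225080 to 40317257), had no count in any tdTomato pool and 149, 124, 61.3 and 0 CPM in the capsaicin pools, at least 4440-fold higher by the mean against the floor of 3 counts per pool. The second jugular capsaicin pool was thus at 0, as were the tdTomato pools. Il1r1 passed the CPM requirement through capsaicin pools alone (edgeR adjusted p = 0.0527), and its bound covers counting error only. Cxcr2, a chemokine receptor, had 139, 111, 213 and 114 CPM in the tdTomato pools and 9.38, 17, 7.46 and 7.73 CPM in the capsaicin pools, a log2 fold change of -3.93 ± 0.92 (edgeR adjusted p = 0.0384). S1pr3, for sphingosine-1-phosphate, and Ptgir, for prostacyclin, had counts of 56.1 to 604 CPM in the nodose pools of both selections. In the jugular pools they had 15.4 to 79 CPM in the tdTomato pools and at most 0.169 CPM in the capsaicin pools. Neither S1pr3 nor Ptgir was called between the selections (edgeR adjusted p = 0.429 and 0.717). Nor was either called for a dependence on the ganglion (edgeR interaction, adjusted p = 0.265 each).

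Markers of other cells and of RNA capture were also compared. Of 12 glial markers, 2 were called higher in the tdTomato pools (16.7%, against 4.08% of all genes) and 1 higher in the capsaicin pools (8.33%, against 1.77%). Apoe (2814 to 3971 against 68 to 268 CPM) and Fabp7 (244 to 831 against 47.3 to 147 CPM) were the former and Pmp22 (203 to 381 against 799 to 1592 CPM) the latter. The summed CPM of the list was 4165 to 5303 in the tdTomato pools and 1749 to 2166 in the capsaicin pools. Most of the tdTomato sum was Apoe. The median log2 fold change of the list was -0.47, against -1.04 for all genes. The defining glial gene Sox10 had at most 0.24 CPM in any pool. C1qa and Tyrobp of macrophages, Cldn5 of endothelium and Hba-a1 of red blood cells had no count in any pool. The part of glial RNA in the differences was not tested. Rn45s, which takes reads of ribosomal RNA and is present in many copies, held 2.65% to 10.3% of the counts of the tdTomato pools and 0.0143% to 0.137% of those of the capsaicin pools. Of 26 genes on the list of small non-polyadenylated RNAs, 1 was called higher in the capsaicin pools (3.85%) and 3 higher in the tdTomato pools (11.5%). The 3 included Rn45s, a longer RNA that the list also took in. The gene higher in the capsaicin pools was Mir22hg, matched by its name and the host of a microRNA (7.3 to 33.5 against 62.3 to 553 CPM). Mir6240 (113 to 367 CPM) and Mir6236 (81.6 to 200 CPM) were seen in the tdTomato pools, with at most 0.239 CPM in the capsaicin pools. Whether their reads are separate from those of Rn45s was not tested. Of 10 replication-dependent histone genes, whose messengers lack a poly(A) tail, 2 were called higher in the tdTomato pools (20%, against 4.08% of all genes).

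The remaining lists had 1.77% (higher in capsaicin) and 4.08% (higher in tdTomato) of all genes as their background. Among 10 long noncoding RNAs, Snhg11 (101 to 255 against 1409 to 4163 CPM) and Malat1 (3426 to 3799 against 5504 to 19610 CPM) were called higher in the capsaicin pools (20%) and Gas5 higher in the tdTomato pools (10%). Among 47 proteasome genes 4 were called higher in the tdTomato pools, led by Psmb5 (390 to 769 against 27.2 to 92 CPM). Insig1 of sterol synthesis (1 of 17 genes) and the kinesin Kif2a (1 of 20) were higher in the capsaicin pools, and Ifi27 (1 of 20 interferon response genes) and 1 of 10 A-fibre markers higher in the tdTomato pools. Of 16 pan-neuronal markers, 2 were called higher in the capsaicin pools (12.5%) and 4, among them Nefm and Nefl, higher in the tdTomato pools (25%). None of 5 sex-linked, 3 macrophage and 4 vascular genes was called.

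**Figure D5:**
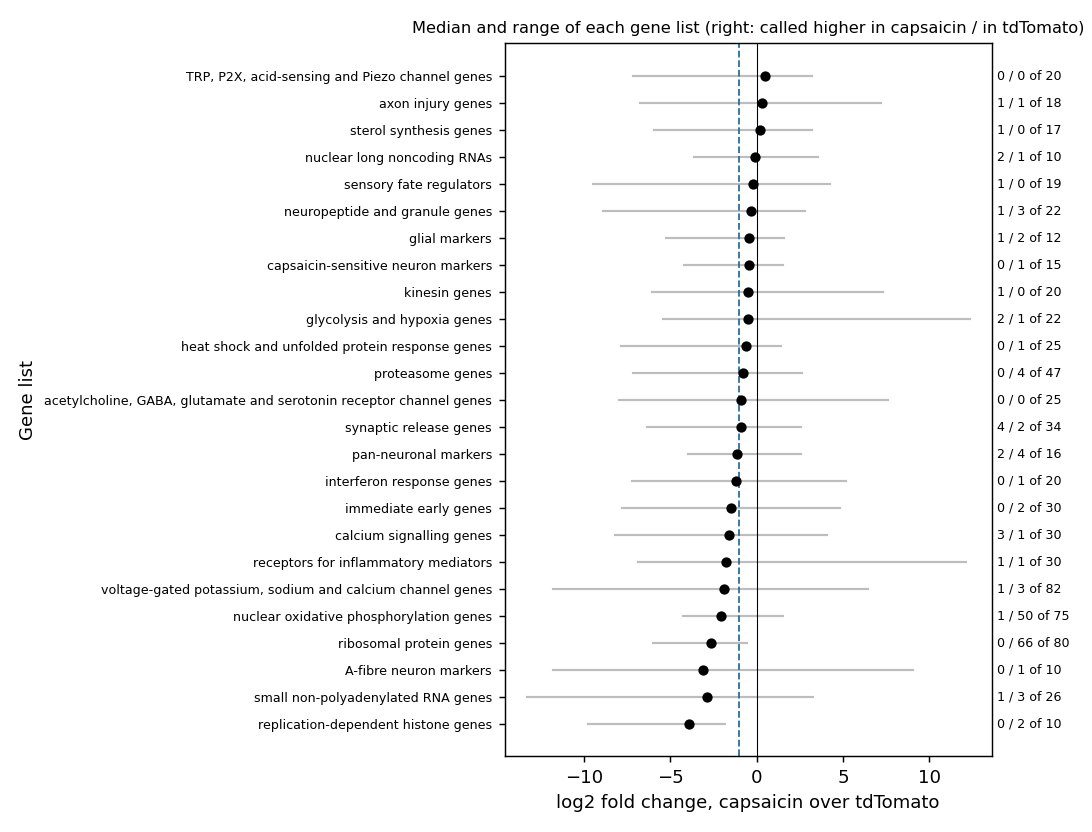
Median (point) and range (line) of the log2 fold change of each gene list with at least 10 tested genes, with genes absent from a whole selection at their bound. The numbers at the right give the genes called higher in the capsaicin pools, higher in the tdTomato pools and tested, and the dashed line is the median of all genes, -1.04.

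Whether the difference between selections depended on the ganglion was tested with an interaction term. No gene was called (0% of 11959, edgeR's quasi-likelihood test with Benjamini-Hochberg adjustment, smallest adjusted p = 0.104), 1233 genes had an unadjusted p under 0.05, and DESeq2 called 1169. Without the first nodose capsaicin pool 195 genes were called, and without the second 8, without the second nodose tdTomato pool 1, and without the first and second jugular tdTomato pools 8 and 15. The genes with the smallest p, chosen after their values were seen, were Ctxn3 and Th. Ctxn3 had 130 and 51.9 CPM in the nodose tdTomato pools against 0.496 and 0.409 CPM in the nodose capsaicin pools, and 346 and 473 against 725 and 746 CPM in the jugular pools. Th, the first enzyme of catecholamine synthesis, had, among nodose pools, 164 and 78.8 against 662 and 533 CPM, and among jugular pools 60 and 134 against 0.422 and 0.191 CPM. Fitted within single ganglia, 40 and 16 genes were called higher in the capsaicin and the tdTomato pools among nodose pools, and 117 and 246 among jugular pools.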

How the data were processed

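RNA of 8 pools of picked vagal neurons was compared, 2 nodose and 2 jugular pools in each selection, grouped by the sample labels. The authors copied and amplified cDNA directly from the cells, sequenced it in pairs, aligned the reads to mm10 with TopHat2 2.0.9 and Bowtie2 2.1.0.0 and counted them with HTSeq. The deposited values are the authors' raw counts per gene symbol, without normalization. The HTSeq version, its strand setting and the annotation are not given in the sources used here. In 27 rows a spreadsheet had turned symbols into month-like words, and these rows were kept apart.

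The counts were fitted with edgeR 4.0.16 in R 4.3.3 (TMM, filterByExpr by group, quasi-likelihood test, Benjamini-Hochberg adjustment), with ganglion and selection as terms, and with their interaction in a second fit. Thresholds followed the study's. CPM is the count over the library total times its TMM factor, scaled to 1000000. This definition was chosen after the data were seen, because CPM from DESeq2's size factors summed to 1650818 in the second nodose capsaicin pool and to 616412 to 880339 in the others. The standard error is the log2 fold change over the square root of F. Alternatives were DESeq2 1.42.0 and its size factors, no filter, counts thinned once to the lowest total with a fixed seed, a replicate block, no ganglion term, single ganglia, each pool left out, other thresholds and Rn45s removed. Plain library totals and an offset for length and GC (loess, span 0.3) were added after the data were seen. Length and GC were first taken from the longest transcript of any kind and then, once retained introns were noticed, from the longest protein-coding one, and both are reported. Of the symbols, 23350 matched GENCODE vM21 (GRCm38) directly, 669 by an older symbol and 400 not at all. Mitochondrially encoded genes had no rows under the symbols searched. The edgeR and DESeq2 fits and the offset were run on simulated data. The offset and the interaction were simulated only at a low, fixed spread between pools. Those runs do not show how they perform at the spread of these pools.

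The comparison and the gene lists were chosen with earlier results of these data known. Genes were named by a rule of up to 4 called genes per list and direction by size, defining markers, the 10 non-overlapping genes with the smallest p and the 5 most abundant called genes of each direction. Replicate numbers are in the labels, but deviations of same-numbered pools did not correlate (r = -0.0296 to 0.00724 over 7304 genes), so they were not used as pairs. Some genes that the rule names are not reported here. The standard errors take in the spread between pools, and the floors cover counting error only.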

Additional observations from a re-analysis of the deposited data

Results flagged for a closer look

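The first jugular tdTomato pool had a mean transcript length over counts of 2559 bases, apart from the other tdTomato pools by Dixon's test. Of 16 such groups of 4 pools 1 stood out, and chance alone gives about 1 in 20. The pool remained far below every capsaicin pool, which had 3614 to 4170 bases.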

How the results depend on the processing

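With the replicate block, 185 genes were called higher in the capsaicin pools and 380 higher in the tdTomato pools, within 1.5 times the 212 and 488 reported, and the interaction stayed at 0. The numbers do not pair the pools, so this is no paired analysis. Calls higher in the capsaicin and in the tdTomato pools were 906 and 1475 with DESeq2, 288 and 271 with its size factors, 340 and 608 without a filter, 40 and 16 in nodose pools, 117 and 246 in jugular pools, 160 and 275 with the length and GC trend removed, and 159 and 289 with that trend taken from the longest transcript of any kind. Leaving out one pool gave 160 to 235 and 255 to 550. Interaction calls were 1169 with DESeq2, 95 without a filter, 2 after thinning and 0 to 195 with one pool left out. The causes were not tested. The low depth of the capsaicin pools limits what can be seen of rare transcripts there.

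Changes of sign were looked for only among the genes that the naming rule picked, not among all called genes. Some of their log2 fold changes changed sign, all of genes not called in the reported fit except Prph, Sncg and Psma7. That of Tac1 was 0.078 with DESeq2's size factors, 0.079 with DESeq2 and 0.17 after thinning. Without the ganglion term P2rx2 was at -0.17 and Ptgir at 1.36. In nodose pools Ptgir was at 2.04 and S1pr3 at 0.42, and in jugular pools Hspa5 at -0.16, P2rx3 at -0.020 and Scn10a at 0.38. With the length and GC trend removed, Ddit3 was at 0.092, Gal at 0.49, Hmgcs1 at -0.78, Hspa5 at -0.16, Prph at 0.083, Scg2 at -0.48, Sncg at 0.54 and Tubb3 at 1.004. With the longest transcript of any kind, Gal was at 0.55, Hmgcs1 at -0.61, Hspa1a at 0.012, Hspa5 at -0.081, Nefh at 0.022, Psma7 at 0.63, Scg2 at -0.34, Sncg at 0.55 and Tubb3 at 1.08. Leaving out one pool at a time, Fos ranged from -0.12 to 0.98, P2rx3 from -0.096 to 0.47, Ptgir from -5.74 to 0.38 and Tac1 from -0.84 to 0.074.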
